A study of Homo sapiens with 6 samples.

Results

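The transcripts described here are those of 10 named genes, chosen by symbol as HOXA genes and transcription factors that MLL fusions are known to keep on: HOXA3, HOXA5, HOXA7, HOXA9, HOXA10, MEIS1, PBX3, MEF2C, MYB and LMO2. Of these, 8 have a row among the 18806 gene symbols of the expression table. Genes were tested where 2 or more libraries had a TPM of 1 or above, and all 8 had this in the control as well as in the DDX6-targeted groups. HOXA10 and PBX3 were not analysed here.

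Poly(A)+ RNA was sequenced from Mono-mac-6 cells. This established monocytic line comes from a human acute myeloid leukemia (AML), and its genotype includes MLL-AF9. All 3 groups came from a single Cas9-expressing clone that received a guide by lentivirus and was selected with blasticidin and hygromycin B. The control group carried sgNS, and the other groups carried sgDDX6.1 or sgDDX6.2, which are separate guides against DDX6, an RNA helicase of processing bodies that acts in mRNA decay and translational repression. Each group had 2 libraries, and the labels place the harvest at day 8 after infection, a day that the stated length of drug selection makes uncertain. Because the line is 1 clone and the labels do not say whether the 2 libraries of a group were separate cultures, the p-values speak only to the spread among these libraries, part or all of which may be technical. In bulk RNA, fewer cells that express a gene and less of its RNA per cell cannot be told apart.

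HOX genes encode homeobox transcription factors that lie side by side in clusters and are opened in an ordered way along the chromosome during development. In blood, the HOXA cluster is active in stem and progenitor cells together with MEIS1, whose protein joins HOX and PBX proteins on DNA, and the cluster is shut down as cells mature. MLL fusions such as MLL-AF9 bind at HOXA genes and MEIS1 and keep them transcribed, and HOXA9 with MEIS1 is a known driver of leukemia in this setting.

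DDX6 itself was first read as a check of the labels. Its TPM was 102 and 99.5 in the sgNS libraries, 54.4 and 52.0 in the sgDDX6.1 libraries, and 52.3 and 53.5 in the sgDDX6.2 libraries. Every targeted library was thus below both controls, by -0.91 on the log2(TPM + 1) scale for the mean of both guides against sgNS (SE 0.04, limma adjusted p = 4.61e-09). TPM is a share of a library and carries no read depth, and 10794 to 11007 genes per library had a TPM of 1 or more. Cytosolic ribosomal protein genes held 23.7% and 23.8% of the sgNS libraries and 18.2% to 19.3% of the targeted ones. Because that share moved with the groups, the tests were repeated with those genes removed and each library rescaled. Counts of genes called and changes of the HOXA genes, MEIS1, MEF2C, MYB and LMO2 were repeated in every contrast. For other genes and lists this was done at most over both guides. Percentile ranks, overlaps of libraries, list medians, summed levels and nearest genes were not recomputed in this way.

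In sgNS cells MYB was the most abundant of the 8 transcripts, at 468 ± 14.4 TPM (SD, n = 2). LMO2 followed at 135 ± 2.98 TPM and HOXA9 at 108 ± 0.0424 TPM. MEIS1 stood at 33.7 ± 1.51 TPM. MEF2C, HOXA5 and HOXA7 had levels of 17.7 ± 0.276, 17.6 ± 0.99 and 17.6 ± 0.601 TPM, which do not differ beyond their spread. HOXA3 was the lowest of the 8, at 9.96 ± 0.17 TPM. TPM is already divided by transcript length, so these levels can be set beside each other.

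**Figure D1:**
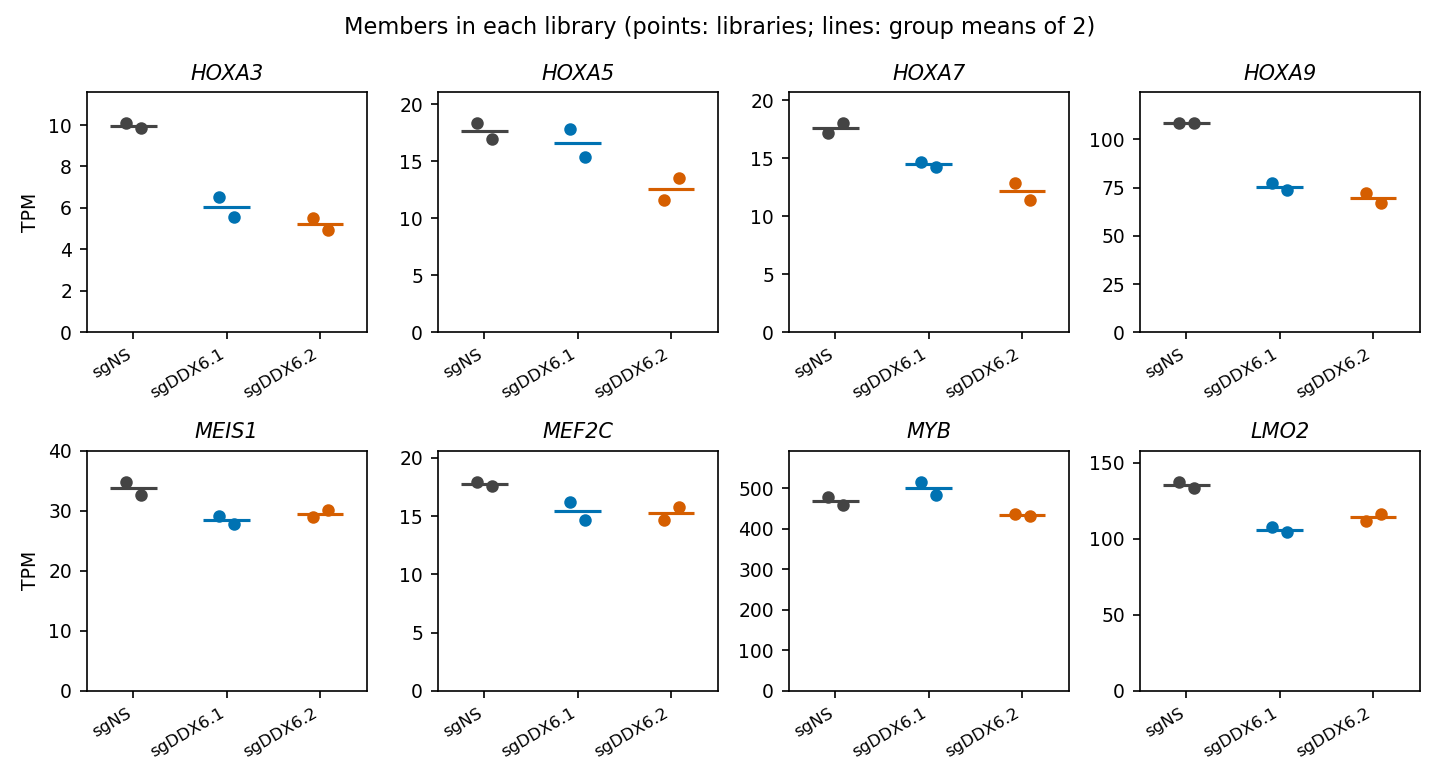
TPM of each of the 8 genes (1 panel each, vertical axis from 0) in the 6 libraries, with 1 point per library and a line at the mean of each group's 2 libraries. The HOXA3, HOXA7, HOXA9, MEIS1, MEF2C and LMO2 points of all 4 DDX6-targeted libraries lie below both sgNS points, while HOXA5 and MYB overlap with sgNS.

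Over both guides, 7 of the 8 genes fell and 0 rose, by limma's test over all 11151 genes with an adjusted p under 0.05. This count has to be read against a wide background: 66.7% of all tested genes passed in either direction, 33.8% were higher and 32.9% were lower. The median change of the 8 genes was -0.28 on the log2(TPM + 1) scale, and that of all tested genes was 0.00. All tested genes had a median absolute change of 0.23, and the central quartiles ran from -0.24 to 0.23, a range that holds MEIS1, MEF2C and MYB. HOXA3 and HOXA9 were farthest out among the 8, with 4.6% and 7.4% of all tested genes below them. HOXA7 had 14.5% of genes below it, LMO2 20.3%, HOXA5 22.4%, MEIS1 27.1%, MEF2C 28.5% and MYB 49.1%. For 6 of the 8 genes all 4 targeted libraries were below both sgNS libraries, a pattern found in 31.9% of all tested genes. None of the 8 had all 4 above both, which 31.5% of all tested genes did.

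HOXA9, the HOXA factor most closely tied to MLL-rearranged leukemia, had a TPM of 108.3 in each sgNS library to 1 decimal. The sgDDX6.1 libraries had 77.5 and 73.5, and the sgDDX6.2 libraries 72.2 and 67.1. All targeted libraries were below both controls by far more than the replicates differed. The change over both guides was -0.57 in log2(TPM + 1) (SE 0.044, 95% interval -0.67 to -0.48, limma adjusted p = 4.02e-07), a level lower by 32.7% on the TPM + 1 scale. Each guide alone gave a call, at -0.52 for sgDDX6.1 (adjusted p = 4.45e-06) and -0.63 for sgDDX6.2 (adjusted p = 7e-07).

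The HOXA9 gene lies on the minus strand of chromosome 7 at chr7:27162435-27175180 (GRCh38, GENCODE release 29). Its exons overlap HOXA10-AS on the opposite strand, and MIR196B and a protein-coding read-through locus on the same strand. None of these overlapping genes has a row in the table and the use of strand in counting is not given in the sources used here, so the gene-level value is uncertain to that extent. Since HOXA9 is the HOXA factor most closely tied to MLL-rearranged leukemia, the 250 bases before its RefSeq start are shown. They lie at chr7:27165538-27165787 on the minus strand (GRCh38.p14, RefSeq) and are printed 5′ to 3′. Matches to 3 common promoter motifs are in capitals.
HOXA9 upstream window: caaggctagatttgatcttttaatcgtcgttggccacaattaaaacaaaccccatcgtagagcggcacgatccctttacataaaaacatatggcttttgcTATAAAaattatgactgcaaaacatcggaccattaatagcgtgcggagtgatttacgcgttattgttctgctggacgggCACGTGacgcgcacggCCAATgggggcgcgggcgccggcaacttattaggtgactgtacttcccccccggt
The capitals mark TATAAA, the letters of a TATA box, then CACGTG, an E-box, then CCAAT, the letters read by NF-Y. Both strands were searched. TATAAA occurs in 10.7% of the 35116 RefSeq windows of this length, CACGTG in 6.34% and CCAAT in 32.0%. No match to TGACAG, the core read by MEIS proteins (13.03% of windows), or TGATTNAT, a PBX-HOX composite (2.48%), lies in these 250 bases. Such letter matches are a description of this window only.

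HOXA3, a paralog from the 3′ side of the cluster (chr7:27106184-27152581, minus strand), had a TPM of 10.1 and 9.84 in the sgNS libraries. The values were 6.51 and 5.55 with sgDDX6.1, and 5.52 and 4.94 with sgDDX6.2. No targeted library reached the controls, and the change over both guides, -0.73 (SE 0.079, 95% interval -0.90 to -0.56, limma adjusted p = 7.27e-06), was the farthest from 0 of the 8. Both guides were called on their own, sgDDX6.1 at -0.64 (adjusted p = 8.32e-05) and sgDDX6.2 at -0.82 (adjusted p = 1.1e-05). The annotated HOXA3 exons overlap those of HOXA-AS2 and HOXA-AS3 on the opposite strand and of the processed transcripts AC004080.5 and AC004080.6 on the same strand, so its gene-level value is uncertain whether or not counting used strand.

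HOXA7, which lies between HOXA6 and HOXA9 (chr7:27153716-27157936, minus strand), had a TPM of 17.2 and 18.0 in sgNS. It stood at 14.7 and 14.3 with sgDDX6.1 and at 12.9 and 11.4 with sgDDX6.2. The 3 groups did not overlap, with sgDDX6.2 lowest. HOXA7 fell by 0.38 on the log2 scale over both guides (SE 0.064, 95% interval -0.52 to -0.24, limma adjusted p = 0.000247), with -0.26 for sgDDX6.1 (adjusted p = 0.00877) and -0.50 for sgDDX6.2 (adjusted p = 0.000104). Its exons overlap HOXA-AS3 on the opposite strand.

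HOXA5, a homeobox factor that also acts in lung development (chr7:27141052-27143668, minus strand), separated the guides. The sgNS libraries had a TPM of 18.3 and 16.9, the sgDDX6.1 libraries 17.9 and 15.4, and the sgDDX6.2 libraries 11.6 and 13.5. Both sgDDX6.2 libraries were below both controls, while the sgDDX6.1 libraries overlapped with them. The change over both guides was -0.27 (SE 0.077, 95% interval -0.44 to -0.10, limma adjusted p = 0.00887). With sgDDX6.1 alone it was -0.08 (95% interval -0.28 to 0.12, adjusted p = 0.447), and with sgDDX6.2 alone -0.46 (adjusted p = 0.000821). The call over both guides was lost without sgNS replicate 1 (adjusted p = 0.0621) and with no filter on low values (adjusted p = 0.055).

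The cluster as a whole did not move in 1 direction. HOXA13, at the 5′ end (chr7:27193503-27200106) and an AbdB-type factor like HOXA9, rose. Its TPM was 18.1 and 18.2 in sgNS, 27.6 and 24.3 with sgDDX6.1, and 34.3 and 34.4 with sgDDX6.2, so that the 3 groups did not overlap. The change was 0.69 over both guides (SE 0.058, 95% interval 0.56 to 0.81, limma adjusted p = 8.99e-07), above 96.7% of all tested genes. Its exons overlap HOTTIP, an antisense RNA. HOXA11, next to it, had 19.7 and 20.1 TPM in sgNS and 21.4 to 23.2 TPM in the 4 targeted libraries. Annotated exons of HOXA11 overlap HOXA11-AS on the opposite strand. HOXA11 rose by 0.15 (limma adjusted p = 0.0288), but this call was lost when ribosomal protein genes were removed (0.06, adjusted p = 0.304). The call was also lost without sgNS replicate 1 (0.13) or 2 (0.17), sgDDX6.1 replicate 1 (0.14) or sgDDX6.2 replicate 2 (0.12).

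On the 3′ side, HOXA4 was at 2.79 and 2.64 TPM in sgNS and at 1.35 to 2.05 TPM in the targeted libraries, and fell by 0.47 (limma adjusted p = 0.0023). HOXA6 had 9.06 and 11.5 TPM in sgNS, 11.0 and 8.22 with sgDDX6.1, and 5.87 and 7.58 with sgDDX6.2. Its sgDDX6.2 libraries were below the others, and its call over both guides (-0.32, adjusted p = 0.0366) was lost under several settings, for example quantile normalization (adjusted p = 0.0745). HOXA2, at 1.99 to 2.78 TPM, was not called (-0.11, adjusted p = 0.302). Annotated exons of HOXA4 overlap HOXA-AS2, HOXA-AS3 and AC004080.6, and those of HOXA6 overlap HOXA-AS3 and AC004080.5. These transcripts also overlap HOXA3, so the values of HOXA4 and HOXA6 are uncertain in the same way. In the order of the cluster, the 6 genes from HOXA3 to HOXA9 with a row in the table were called lower over both guides. The 2 at the 5′ end were called higher, and the exceptions by setting given above apply. Of all tested genes 32.9% were called lower and 33.8% higher. Of the 27 HOXB, HOXC and HOXD genes in the table, 23 were listed at 0 in all libraries and none exceeded 0.39 TPM.

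**Figure D2:**
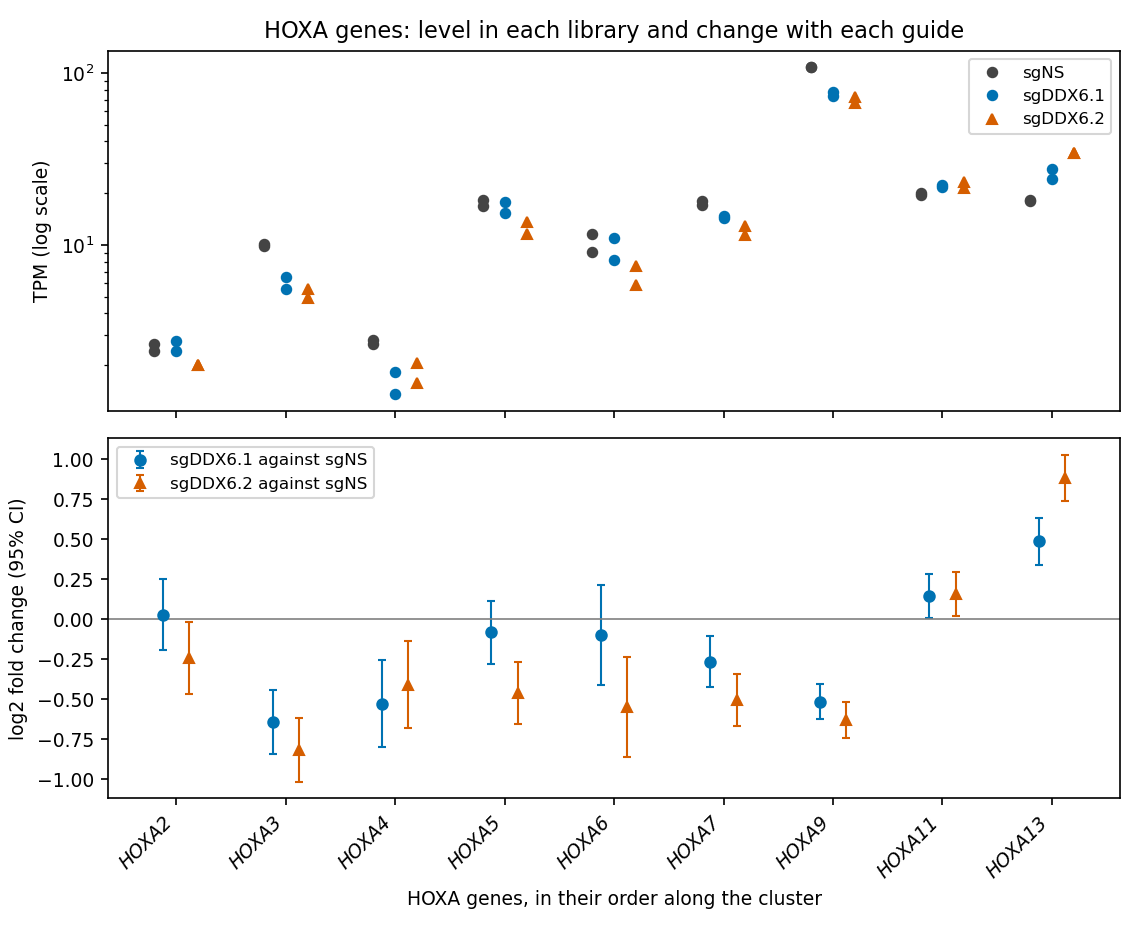
The HOXA genes named in the text, in their order along the cluster, with the TPM of each library on a log axis (upper panel) and the change in log2(TPM + 1) of each guide against sgNS with 95% intervals (lower panel). All points from HOXA3 to HOXA9 lie below 0 in the lower panel, and HOXA13 stands highest at 0.49 with sgDDX6.1 and 0.88 with sgDDX6.2.

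MicroRNA silencing is a process in which DDX6 takes part, and the HOXA cluster holds a microRNA gene of its own. The matches to its seed in annotated 3′ UTRs of the 8 genes are therefore shown. A single annotated transcript per gene was searched, so absences hold for that transcript only. The mature sequences (RefSeq, GRCh38.p14) have the seed, bases 2 to 8, in capitals. The mature miR-196b lies at chr7:27169528-27169549 on the minus strand, within the annotated span of HOXA9. The mature miR-223, from the myeloid microRNA gene MIR223, lies at chrX:66018937-66018958 on the plus strand.
hsa-miR-196b-5p: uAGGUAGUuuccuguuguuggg
hsa-miR-223-3p: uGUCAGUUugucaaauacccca
The complement of the miR-196b seed is ACTACCT, found in 738 of the 10728 3′ UTRs of tested genes searched (6.88%). Among the 8 genes it occurs 4 times in HOXA7, 2 times in HOXA9 and 1 time in HOXA5. Below, each match is in capitals, and the position is that of its first base counted from 1 at the start of the 3′ UTR.
HOXA5, position 441: agatatttttattcaaACTACCTata
HOXA7, position 302: ctggcgcgtccaaaatACTACCTagc
HOXA7, position 339: ctcgaggcacccccaaACTACCTatg
HOXA7, position 454: gaaagtgaatctcactACTACCTact
HOXA7, position 472: tacctactcccctaaaACTACCTatt
HOXA9, position 342: aaacaaaaggaaagaaACTACCTttt
HOXA9, position 904: atatgtgcagaaggttACTACCTagg
The complement of the miR-223 seed, AACTGAC (918 UTRs, 8.56%), occurs in LMO2 and MEF2C.
LMO2, position 245: acagcccatccatagtAACTGACatg
MEF2C, position 1237: agcaatctattgggtcAACTGACatc
MEF2C, position 1627: cgtttttaattattttAACTGACcct
HOXA3, MEIS1 and MYB hold neither match, and CTACCTC, the complement of the let-7a seed (9.82% of UTRs), occurs in none of the 8. The levels of these microRNAs were not measured in these libraries. The 3 genes with an ACTACCT match changed by -0.27, -0.38 and -0.57 over both guides. Those without one were HOXA3 (-0.73), LMO2 (-0.30), MEIS1 (-0.21), MEF2C (-0.20) and MYB (-0.01). Whether the matches have a part in these changes was not tested.

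MEIS1 is the TALE homeobox cofactor of HOXA9 (chr2:66433452-66573869, plus strand). Its exons overlap MEIS1-AS2 and MEIS1-AS3 on the opposite strand, so its gene-level value is uncertain to that extent. MEIS1 had a TPM of 34.8 and 32.7 in sgNS. The sgDDX6.1 libraries had 29.2 and 27.7 and the sgDDX6.2 libraries 28.9 and 30.1. All 4 targeted libraries were lower than both controls, by a margin close to the spread of the controls. MEIS1 fell by 0.21 on the log2 scale over both guides (SE 0.051, 95% interval -0.33 to -0.10, limma adjusted p = 0.00311), or 13.7% less on the TPM + 1 scale. The changes were -0.24 with sgDDX6.1 (adjusted p = 0.00439) and -0.19 with sgDDX6.2 (adjusted p = 0.0151). The sgDDX6.2 call was lost without sgNS replicate 1 (adjusted p = 0.118) or without sgDDX6.2 replicate 1 (adjusted p = 0.115).

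Of the other TALE homeobox genes, 6 of 9 were tested, with 1 higher, 2 lower and a median of 0.00. Over all tested genes, 33.8% were called higher and 32.9% lower. TGIF1, a repressor of the family, fell by 0.79 (limma adjusted p = 3.27e-07), from 60.5 and 54.3 TPM in sgNS to at most 34.5 TPM. MEIS3 fell by 0.37 (adjusted p = 0.0202) at a level of at most 1.01 TPM, with -0.61 under sgDDX6.1 (adjusted p = 0.0034) and -0.14 under sgDDX6.2 (adjusted p = 0.409). Its call over both guides was lost under quantile normalization (adjusted p = 0.127), without sgDDX6.1 replicate 1 (0.0657) and without sgDDX6.2 replicate 1 (0.0594). PBX2, a HOX partner like PBX3, rose by 0.16 (adjusted p = 0.00205), a call that was not made once ribosomal protein genes were removed. PKNOX1 gave 0.06 (adjusted p = 0.472). MEIS2 was listed at 28.3 to 31.2 TPM in all 6 libraries and was not called.

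LMO2, a bridging protein of blood transcription factor complexes (chr11:33858576-33892289, minus strand), had a TPM of 137 and 133 in sgNS. It stood at 108 and 104 with sgDDX6.1 and at 112 and 116 with sgDDX6.2. The 3 groups did not overlap and the controls were highest. LMO2 fell by 0.30 over both guides (SE 0.038, 95% interval -0.38 to -0.21, limma adjusted p = 2.98e-05), and by 0.35 and 0.24 with sgDDX6.1 and sgDDX6.2 (adjusted p = 3.26e-05 and 0.000461).

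Of 10 partners of LMO2 complexes 7 were tested, with 2 higher, 4 lower and a median of -0.25. Beside these counts, 33.8% of all tested genes were called higher and 32.9% lower. The count of partners higher was 1 without ribosomal protein genes and 1 without the variance trend. GATA2, a stem cell GATA factor, fell by 1.31 (limma adjusted p = 1.28e-06), from 8.82 and 8.39 TPM to 2.31 to 4.29 TPM. LYL1, a bHLH factor, fell by 0.30 (adjusted p = 5.24e-05), from 75.9 and 80.4 TPM to 61.5 to 63.8 TPM. The E proteins that pair with such factors moved in opposite directions. TCF12 fell by 0.35 in log2(TPM + 1) (limma adjusted p = 1.25e-05) and TCF3 rose by 0.38 (adjusted p = 1.22e-05).

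MEF2C is a MADS-box factor expressed in myeloid progenitors and raised in MLL-rearranged leukemia (chr5:88717117-88904257, minus strand). Its exons overlap MEF2C-AS1 and MEF2C-AS2 on the opposite strand, so its gene-level value is uncertain to that extent. MEF2C had a TPM of 17.9 and 17.6 in sgNS. The targeted libraries had 16.2 and 14.7 (sgDDX6.1) and 14.7 and 15.8 (sgDDX6.2). They lay below both controls, and the gap to the nearest was close to the spread within a guide. MEF2C fell by 0.20 (SE 0.062, 95% interval -0.33 to -0.06, limma adjusted p = 0.0141). This call was lost without sgNS replicate 1 (adjusted p = 0.0744) and without sgDDX6.2 replicate 1 (adjusted p = 0.0513). Alone, sgDDX6.1 gave -0.19 (adjusted p = 0.0375) and sgDDX6.2 gave -0.21 (adjusted p = 0.0243). These calls did not hold throughout the 17 alternatives, with adjusted p of up to 0.196 for sgDDX6.1 (without sgDDX6.1 replicate 2) and up to 0.178 for sgDDX6.2 (without sgDDX6.2 replicate 1).

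MYB, a transcription factor that AML cells of this type depend on (chr6:135181315-135219173, plus strand), was the exception. Its exons overlap MYB-AS1 on the opposite strand. Its TPM was 478 and 458 in sgNS, 515 and 483 with sgDDX6.1, and 436 and 432 with sgDDX6.2. Both sgDDX6.1 libraries lay above the controls and both sgDDX6.2 libraries below them. The mean of both guides differed from sgNS by -0.01 (SE 0.035, 95% interval -0.08 to 0.07, limma adjusted p = 0.878). Once ribosomal protein genes were removed, MYB was called lower over both guides (-0.10, adjusted p = 0.0204). The sgDDX6.1 value was 0.09 (adjusted p = 0.0662), and it was called higher with the replicate number as a block (adjusted p = 0.0154). With sgDDX6.2 MYB fell by 0.11 (adjusted p = 0.038). That fall was past the threshold in some alternatives only. It was lost without sgNS replicate 1 (adjusted p = 0.224), without either sgDDX6.2 library (0.106 and 0.15), without the variance trend (0.134), with no filter (0.0863) and under median centring (0.0646).

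The paralogs of MEF2C, MYB and LMO2 were tested in 6 of 8 cases, 3 higher and 3 lower. The shares over all tested genes were 33.8% higher and 32.9% lower. MEF2A fell by 0.60 (limma adjusted p = 3.45e-07), from 83.4 and 79.3 TPM to 51.7 to 55.3 TPM. MEF2D rose by 0.20 (adjusted p = 0.00113). MYBL2, a cell cycle factor related to MYB, rose by 0.31 (adjusted p = 3.17e-05), from 210.5 and 227 TPM to 252 to 288 TPM. LMO4 rose by 0.40 (adjusted p = 1.28e-05), with 65.3 and 69.4 TPM under sgDDX6.1 against 42.6 and 44.5 TPM in sgNS.

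**Figure D3:**
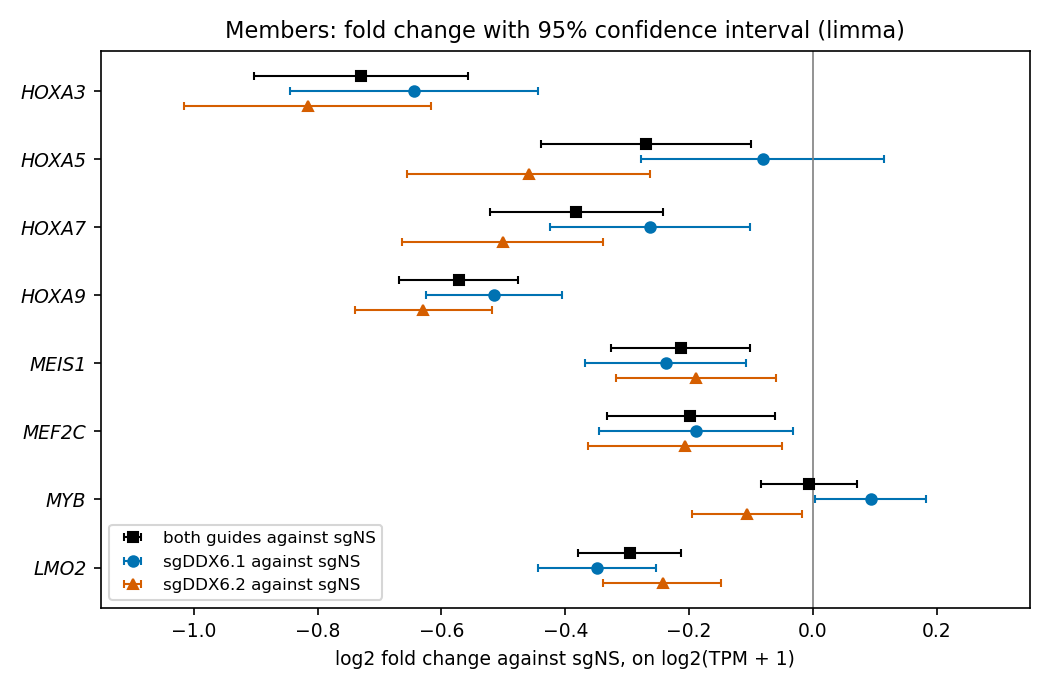
Change in log2(TPM + 1) of each of the 8 genes (rows) for sgDDX6.1 against sgNS, sgDDX6.2 against sgNS and both guides together, as points with 95% intervals. The points for both guides run from -0.73 for HOXA3 to -0.01 for MYB, and the guides stand apart for HOXA5, HOXA7 and MYB.

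Because both guides share the sgNS libraries, the guides were also compared directly. Against sgNS, sgDDX6.1 gave 6 of 8 genes called lower and 0 higher. Of all tested genes 61.6% were called with that guide, 29.7% lower and 31.8% higher. The sgDDX6.1 libraries lay below both controls for 6 genes (38.7% of all tested genes) and above them for MYB (40.3%). With sgDDX6.2, 8 of 8 genes were called lower and 0 higher, a count of 5 without sgNS replicate 1 or without sgDDX6.2 replicate 1, where 64.2% of all tested genes were called, 32.7% lower and 31.5% higher. The sgDDX6.2 libraries lay below both controls for all 8 genes (42.8% of all tested genes) and above them for none (40.3%). Between the guides, 3 of the 8 genes passed the test, all lower with sgDDX6.2, where 35.6% of all tested genes were called, 18.6% lower and 17.0% higher. They were HOXA5 (-0.38, 95% interval -0.57 to -0.18, limma adjusted p = 0.00748), HOXA7 (-0.24, interval -0.40 to -0.08, adjusted p = 0.0278) and MYB (-0.20, interval -0.29 to -0.11, adjusted p = 0.00329). The sgDDX6.2 libraries of 5 genes lay below those of sgDDX6.1 (38.5% of all genes) and those of LMO2 above (30.7%).

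For the remaining 5 genes a difference between the guides was not called, and the intervals, which are not adjusted for the number of genes, bound its size. It was -0.11 for HOXA9 (95% interval -0.23 to -0.00, limma adjusted p = 0.0982) and -0.17 for HOXA3 (-0.37 to 0.03, adjusted p = 0.163). MEIS1 gave 0.05 (-0.08 to 0.18, adjusted p = 0.55) and MEF2C -0.02 (-0.17 to 0.14, adjusted p = 0.875). LMO2 gave 0.11 (0.01 to 0.20, adjusted p = 0.0829). HOXA9 was called with the replicate number as a block (adjusted p = 0.0365), HOXA3 under quantile normalization (adjusted p = 0.0436), and LMO2 under both settings and median centring. DDX6 itself differed by -0.01 between the guides (adjusted p = 0.918). In the neighbouring genes, HOXA6 was lower with sgDDX6.2 than with sgDDX6.1 by 0.45 in log2 (-0.45, adjusted p = 0.0289), and HOXA13 was higher (0.40, adjusted p = 0.00106). The HOXA6 difference was lost under 5 alternatives, with adjusted p of up to 0.28 (without sgDDX6.1 replicate 1).

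Other genes that MLL fusions are known to bind were taken as a separate list of 24, of which 18 were tested. Here 10 were called lower and 1 higher, with a median of -0.16, where 32.9% of all tested genes were called lower and 33.8% higher. The count higher was 0 without ribosomal protein genes, 2 under median centring and 3 with the replicate number as a block. SENP6, a SUMO protease, fell by 0.86 (limma adjusted p = 3.82e-08), from 56.1 and 54.4 TPM to 28.5 to 30.9 TPM. SOCS2, a feedback inhibitor of cytokine signalling, fell by 0.39, RUNX2, a Runt-domain factor, by 0.32, and ZNF521, a zinc finger factor of progenitors, by 0.30. The cofactors of MLL and its fusions were all tested, with 10 of 18 lower, 5 higher and a median of -0.20. Without ribosomal protein genes 3 cofactors were called higher. PSIP1, whose LEDGF product tethers MLL to chromatin, fell by 1.19 (adjusted p = 3.63e-09), from 196 and 173 TPM to 75.3 to 88.8 TPM. MLLT3, which encodes AF9, fell by 0.59 (adjusted p = 1.16e-05) and KMT2A, which encodes MLL, by 0.35 (adjusted p = 0.000123), while AFF1, a super elongation complex scaffold, rose by 0.34. The gene-level TPM of KMT2A and MLLT3 does not separate the fusion transcript from the normal ones.

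Genes described as targets of HOXA9, MEIS1, HOXA10 or MYB did not move in 1 direction. Of 14 listed, 10 were tested, with 5 higher, 4 lower and a median of 0.20, where 33.8% of all tested genes were called higher and 32.9% lower. PIM1, a survival kinase, fell by 2.57 (limma adjusted p = 8.79e-12), from 51.3 and 53.0 TPM in sgNS to 5.91 and 6.04 with sgDDX6.1 and 10.7 and 10.2 with sgDDX6.2. MYC fell by 0.77 (adjusted p = 7.4e-09), to 264 and 245 TPM with sgDDX6.1 and 178 in each sgDDX6.2 library, from 360 and 370 in sgNS. ID2, an inhibitor of bHLH factors, rose by 0.46 (adjusted p = 8.99e-07), from 152 and 144 TPM to 187 to 222 TPM. CCNB1, a mitotic cyclin, rose from 108 TPM in each sgNS library to 122 to 146 TPM.

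**Figure D4:**
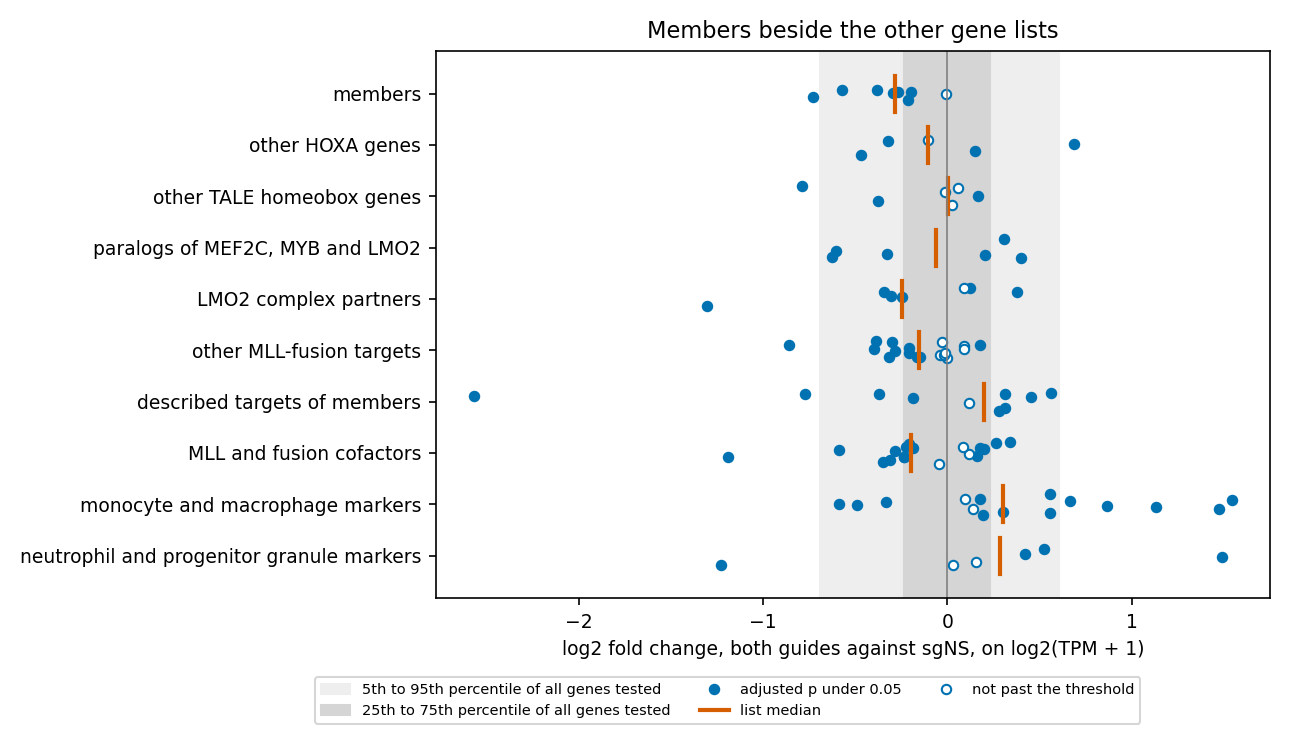
Change in log2(TPM + 1) over both guides against sgNS of each tested gene (points) in the lists set beside the 8 genes, with the median of each list as a line, filled points past the threshold and grey bands for the percentiles of all tested genes. The 8 genes lie between -0.73 and -0.01 with a median of -0.28, and the described targets of HOXA9, MEIS1, HOXA10 or MYB range from -2.57 to 0.56.

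Monocyte and granule markers changed in both directions. Beside their counts, 33.8% of all tested genes were called higher and 32.9% lower over both guides. Of 16 monocyte and macrophage markers 15 were tested, with 10 higher, 3 lower and a median of 0.30. Their summed level was 13800 and 14400 TPM in sgNS and 25200 to 26400 TPM in the targeted libraries. LYZ, S100A9 and S100A8 made up 96.3% to 97.4% of this sum, and the other 13 genes summed to 507 and 511 TPM in sgNS and 697 to 810 TPM in the targeted libraries. S100A8 and S100A9, the calprotectin subunits, rose by 1.54 and 1.48, IRF8, a monocyte lineage factor, by 0.86, and LYZ, lysozyme, by 0.56. The 3 genes called lower were FCGR1A, an Fc receptor (-0.59, limma adjusted p = 1.86e-05), ITGAM, an integrin chain (-0.34, adjusted p = 0.00442), and CD14, a defining monocyte marker (-0.49, adjusted p = 0.0108). CD14 was at 0.37 to 1.36 TPM in all libraries and its call was lost in 3 of 13 alternatives, that of ITGAM without sgNS replicate 2 (adjusted p = 0.0772). By guide, sgDDX6.1 gave 7 higher and 3 lower with a median of 0.07, and sgDDX6.2 gave 11 higher and 2 lower with a median of 0.56. FCN1 did not exceed 0.16 TPM. Granule genes were tested in 6 of 7 cases, with 3 higher and 1 lower and a summed level of 8440 and 9020 TPM in sgNS and 10900 to 13400 TPM in the targeted libraries. PRTN3, proteinase 3, rose by 1.49, CTSG, cathepsin G, by 0.53 and ELANE, neutrophil elastase, by 0.42, and MPO, myeloperoxidase, fell by 1.23. Their part in the HOXA, MEIS1, MEF2C and LMO2 results was not tested.

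Lists for other cell types were mostly near 0. The T cell genes CD3E, CD3D, CD3G and CD2 were listed at 0 in all libraries, the B cell gene MS4A1 likewise, and HBB and PF4 of the erythroid and megakaryocyte list too. Among the 2 tested T and NK genes, NKG7 rose by 0.55, at 103 to 187 TPM, and CD8A fell by 0.64. The B cell genes did not exceed 3.23 TPM, with CD79B higher over both guides (0.63) but not called with sgDDX6.1 (0.09, limma adjusted p = 0.596). CD79A gave -0.47 (adjusted p = 0.0139), was not called with sgDDX6.2 (-0.20, adjusted p = 0.325) and lost its call in 4 alternatives (adjusted p of up to 0.0856, under quantile normalization). HBA1, the only tested erythroid gene, rose by 0.80 at up to 1.47 TPM. Of the stromal and epithelial list 3 genes were tested. PECAM1, which myeloid cells also express, rose by 1.31, and KRT18 (-0.47) and KRT8 (-0.38) fell.

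The 8 transcripts differed in GC content over their whole length, while the coding sequences of the HOXA genes were alike. Coding-sequence GC content was 66.8% in HOXA3, 62.5% in HOXA5, 62.3% in HOXA7 and 62.0% in HOXA9. It was 55.7% in LMO2, 49.7% in MEIS1, 49.5% in MEF2C and 46.8% in MYB. Mature transcript GC content ran from 38.6% in MEF2C to 55.9% in LMO2, with a median of 48.9% over the 10845 tested genes that had an annotated transcript, 97.3% of all tested. HOXA3 and LMO2 stood at the 70.1 and 70.5 percentiles of GC content, HOXA9 at 46.3 and MEF2C at 9.2. The 3′ UTRs of MEF2C (4363 bases) and MEIS1 (2661 bases) were long, at percentiles 91.2 and 78.8, against a median of 1053 bases. Those of HOXA9 (1168 bases), HOXA7 and MYB (1193 bases each) were near that median. HOXA3 had 1725 bases, HOXA5 783 bases and LMO2 780 bases. Whether UTR length or GC content has a part in the changes was not tested.

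The genes whose profile over the 6 libraries was nearest to that of HOXA9, MEIS1 and MYB were found among the 9298 genes with a mean TPM of at least 5, by the root mean square difference in log2(TPM + 1) after each gene's sgNS mean was subtracted. For HOXA9 they were SECISBP2 (0.022), SEPSECS (0.0258) and SEC63 (0.0292), with changes over both guides of -0.58, -0.59 and -0.56. For MEIS1 they were ZMYND8 (0.0174), ZNF25 (0.0224) and RNF13 (0.0226), with changes of -0.21, -0.19 and -0.21. For MYB they were RAPGEF6 (0.0107), NAA50 (0.017) and NCAPH (0.0175). These 3 were, like MYB, higher with sgDDX6.1 (0.08 to 0.09) and lower with sgDDX6.2 (-0.12 to -0.09). The list is a description of likeness over 6 libraries and carries no test.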

How the data were processed

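Poly(A)+ RNA of 6 Mono-mac-6 libraries was sequenced, 2 each for sgNS, sgDDX6.1 and sgDDX6.2, grouped by the labels. The authors deposited a table of TPM per gene symbol. RSEM 1.2.31 and the build GRCh38 are named in the submitters' processing notes, while the aligner is not given in the sources used here, nor is the annotation. RSEM divides shared reads by a model, TPM sums to 1000000 in each library, and depth is unknown, so no counting interval is given.

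From these values log2(TPM + 1) was computed, which understates the change of low genes. A minimum TPM of 1, reached by 2 libraries or more, kept 11151 of 18806 genes. With limma 3.58.1 (R 4.3.3), 3 group means were fitted over all 6 libraries, with a variance trend and 3 residual degrees of freedom. Tests were two-sided, adjusted by Benjamini-Hochberg over all tested genes within each of 4 contrasts, at a threshold of 0.05. On simulated data with 11151 genes for both guides against sgNS, all 50 genes changed by each of -1, -0.5, 0.5 and 1 in log2 were recovered, with 9 false calls in all. The simulated noise was independent between libraries, and few genes were changed, whereas 66.7% of tested genes were called in the data. Changes smaller than 0.5, like those of HOXA5, HOXA7, MEIS1, MEF2C and LMO2, were not simulated. The simulation therefore does not speak to the recovery of such changes.

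The members and the 15 lists beside them were chosen with earlier results of these data known. The members, other HOXA genes and DDX6 are named, and some genes that the rule selects are left out. Of each other list up to 4 genes with the lowest adjusted p over both guides are named, and CD14, ITGAM, FCGR1A, FCN1, MEIS2 and genes listed at 0 were named after their values were seen. Alternatives were other pseudocounts, filters and scalings, robust estimation or no trend in limma, the replicate number as a block, each library left out in turn, and fits to the groups compared alone. The same alternatives for genes outside the members and for the other lists were chosen after seeing the data. Positions and transcripts come from GENCODE release 29, with a single protein-coding transcript per gene, and promoter and microRNA sequences from RefSeq.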

Additional observations from a re-analysis of the deposited data

Results flagged for a closer look

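For 5 HOXA-cluster or member genes the guides differed by their own test, sgDDX6.2 against sgDDX6.1, on the log2(TPM + 1) scale. HOXA5 (-0.38), HOXA7 (-0.24), HOXA6 (-0.45) and MYB (-0.20) were lower with sgDDX6.2 in 2 of 2 libraries each, and HOXA13 (0.40) was higher in 2 of 2. DDX6 transcript levels did not separate the guides (-0.01, limma adjusted p = 0.918), and the level of DDX6 protein in these libraries was not analysed here. Of all tested genes 35.6% differed between the guides by this test. The MYB difference was past the threshold in all 17 alternatives that gave a value (largest adjusted p = 0.0358). Those of HOXA5, HOXA7 and HOXA6 were not, with largest adjusted p of 0.0853, 0.256 and 0.28.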

How the results depend on the processing

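Over both guides, HOXA3, HOXA7, HOXA9, MEIS1 and LMO2 remained below sgNS and past the threshold in all 16 alternatives, with largest adjusted p of 0.00124, 0.00487, 0.000251, 0.0463 and 0.00108. The number of the 8 genes called lower was 5 to 7 when 1 library was left out, 5 without sgNS replicate 1, and 6 (no filter) to 8 (without ribosomal protein genes, where MYB gave -0.10, adjusted p = 0.0204) otherwise. Removing ribosomal protein genes shifted the median of all genes by -0.09 and moved the share of calls that were higher from 50.6% to 37.3%.

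With sgDDX6.2 alone the count lower was 5 to 8 over the left-out libraries, 5 without sgNS replicate 1 or sgDDX6.2 replicate 1, and 6 with no filter, 7 under median centring and 7 without the trend. With sgDDX6.1 alone the count higher was 0 to 1 over the left-out libraries. Between the guides, the count lower was 1 with no filter, 1 to 3 over the left-out libraries and 4 under quantile normalization (HOXA3 added) or the replicate block (HOXA9 added), and LMO2 made the count higher 1 under quantile normalization and 1 under median centring. Genes called between the guides numbered 2252 to 4121 over the left-out libraries, against 3971, with 2252 without sgDDX6.2 replicate 1, 2316 without sgDDX6.2 replicate 2 and 2579 without sgDDX6.1 replicate 1. The cause was not tested.

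Whether replicate numbers pair the samples was not settled. Deviations of replicate 1 from its group mean correlated at 0.262 (sgNS with sgDDX6.1), 0.098 (sgNS with sgDDX6.2) and 0.04 (between the guides). With the replicate number as a block, 7859 genes were called over both guides against 7434. The counts were 7402 against 6866 for sgDDX6.1, 7650 against 7160 for sgDDX6.2 and 4809 against 3971 between the guides. Over both guides the count of members lower was 7. The block gave 1 member called higher for sgDDX6.1 (MYB, 0.09, limma adjusted p = 0.0154) and 1 between the guides (LMO2).

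Signs turned only for values that were not called. Under quantile normalization RAPGEF6 gave 0.001, NCAPH 0.005 and HOXA4 between the guides -0.004. Under median centring NCAPH gave 0.002 and MEF2C between the guides 0.003. Without ribosomal protein genes PKNOX1 gave -0.031 and HOXA2 with sgDDX6.1 -0.039. Over the left-out libraries, both guides, MYB ran from -0.038 to 0.025, PKNOX1 from -0.005 to 0.117, RAPGEF6 from -0.039 to 0.021, NAA50 from -0.051 to 0.023 and NCAPH from -0.027 to 0.021. With sgDDX6.1, HOXA2 ran from -0.042 to 0.098, HOXA5 from -0.182 to 0.019 and HOXA6 from -0.284 to 0.093. Between the guides, HOXA4 ran from -0.016 to 0.253, HOXA11 from -0.043 to 0.068 and MEF2C from -0.085 to 0.05. With 2 libraries a group and no read depth, small changes of genes near a TPM of 1 are the least certain.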
